A study of Mus musculus with 12 samples.

Results

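The genes of oxidative phosphorylation were followed in mouse bone marrow-derived macrophages (BMDMs), with the genes carried in the nucleus set against those carried on mitochondrial DNA. The members were chosen by a rule on gene names, set with earlier results of these data known. They were protein-coding genes whose symbol begins with Nduf, Uqcr, Cox4, Cox5, Cox6, Cox7, Cox8, Atp5 or mt-, plus Sdha, Sdhb, Sdhc, Sdhd and Cyc1. Of 108 such genes, 97 had at least 10 counts in at least 2 libraries and were kept, out of 16281 genes that passed the same filter. The 97 members were 90 nuclear genes and 7 mitochondrial-encoded genes.

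Oxidative phosphorylation is carried out in the inner mitochondrial membrane. Complex I (NADH dehydrogenase) and complex II (succinate dehydrogenase) pass electrons to ubiquinone, complex III passes them to cytochrome c, complex IV (cytochrome c oxidase) passes them to oxygen, and complex V (ATP synthase) uses the resulting proton gradient to make ATP. Most subunits are encoded in the nucleus and imported, while a small core of complexes I, III, IV and V is transcribed from mitochondrial DNA by a polymerase of its own, so the complexes depend on both genomes. In macrophages the balance between this pathway and glycolysis is known to shift with activation.

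BMDMs from C57BL/6 WT mice were cultured for 5 days and then incubated for 24 h without tumor-conditioned medium (NS), with tumor-conditioned medium (TCM) of NB9464, a neuroblastoma line labelled MYCN amp, or with TCM of NBT3L, a neuroblastoma line labelled non-MYCN amp. Each of these media was used without and with 500 nM R788, an inhibitor of the kinase Syk, which gave 3 groups without it (NS, NB9464 TCM and NBT3L TCM) and 3 with it (R788 alone, then R788 with the TCM of each line). NB9464 TCM was collected in medium without serum for 48 h, while the preparation of NBT3L TCM, of the control medium and of a vehicle control is not given in the sources used here. Each group had 2 libraries, named SJ1 and SJ2 (NS), SJ3 and SJ4 (NB9464 TCM), SJ5 and SJ6 (NBT3L TCM), SJ7 and SJ8 (R788), SJ9 and SJ10 (with NB9464 TCM and R788), and SJ11 and SJ12 (with NBT3L TCM and R788), and whether these came from separate mice or cultures is not stated, so the p-values measure only the spread between libraries.

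The libraries held 44977847 to 56449685 counts. All 8 macrophage markers examined were detected, and their summed level ran from 34000 to 49000 CPM (counts scaled to a common library total). Of the neuroblastoma markers, Th and Chga were at 0 counts in every library, and the summed level of the 8 was 0.200 to 0.218 CPM in NS, 0.0800 to 0.921 in R788 and 1.35 to 2.76 in the groups with TCM. The 6 fibroblast markers summed to 25.1 to 37.8 CPM without R788 and 37.4 to 66.0 with it, and the 8 neutrophil markers to 144 to 204. Single markers need not follow their sum. Among neutrophil markers S100a8 ran from 840 to 7302 counts, Ltf from 335 to 2670, Ngp from 449 to 2260 and Ly6g from 0 to 4. Lyz2 made up most of the macrophage sum, with 1389542 to 2030783 counts against 76084 to 392674 for Adgre1. The marker sums here and below are therefore not read as shares of cells. Library SJ8 of the R788 group stood apart, with 16149 genes detected against 17275 to 18343 in the others. As these are bulk samples, a lower level per cell and a smaller share of cells expressing a gene cannot be told apart.

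Of the 13 protein-coding genes of mitochondrial DNA, 6 were not counted. Mt-Co2, mt-Atp8, mt-Atp6 and mt-Nd4l had 0 counts in all 12 libraries, mt-Co3 had at most 2 and mt-Nd3 at most 6, although their neighbours on the same strand were counted. These genes lie next to each other on mitochondrial DNA, from position 7013 (start of mt-Co2) to 10173 (end of mt-Nd4l) of the GRCm38 mitochondrial sequence. Except for mt-Atp8, they shared 97.6 to 99.9% of their 100-base windows with annotated copies on chromosome 1, the unprocessed pseudogenes between 24611535 and 24616197. The copies found on chromosomes 1 and 2 had at most 23 counts each in any library. Mt-Atp8 shared no window with an annotated transcript, and mt-Nd4 (60.8%) and mt-Co1 (30.8%), which were counted, shared part of theirs. Only annotated transcripts were searched, so a copy of mt-Atp8 outside them would be missed. On chromosome 1 the copies of its neighbours mt-Atp6 (to 24614651) and mt-Co2 (from 24614885) leave a stretch between them that was not searched. How the counting treated reads with more than 1 matching place is not given in the sources used here, and its part in these zeros was not tested.

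A stretch of mt-Co2, which encodes a core subunit of complex IV, is shown beside its nuclear copies because a read from it has no base that tells the first copy apart. The lines give bases 211 to 300 of mt-Co2 (chrM:7223-7312, plus strand), of Gm28661 (chr1:24615266-24615355, minus strand) and of Gm13341 (chr2:22587663-22587752, minus strand) from GENCODE transcripts on GRCm38, with bases that differ from mt-Co2 in capitals.
mt-Co2: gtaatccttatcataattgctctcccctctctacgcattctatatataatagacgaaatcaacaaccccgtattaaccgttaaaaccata
Gm28661: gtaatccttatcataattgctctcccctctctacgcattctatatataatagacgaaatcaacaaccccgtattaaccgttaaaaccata
Gm13341: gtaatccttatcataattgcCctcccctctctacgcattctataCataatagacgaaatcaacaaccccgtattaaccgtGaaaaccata
Over the full 681 bases of Gm28661 there were 0 differences from mt-Co2. Gm13341 differed at 3 of the 90 bases shown, a stretch picked because few of its bases differ there. Over the 672 bases of Gm13341 aligned without gaps there were 173 differences.

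**Figure D1:**
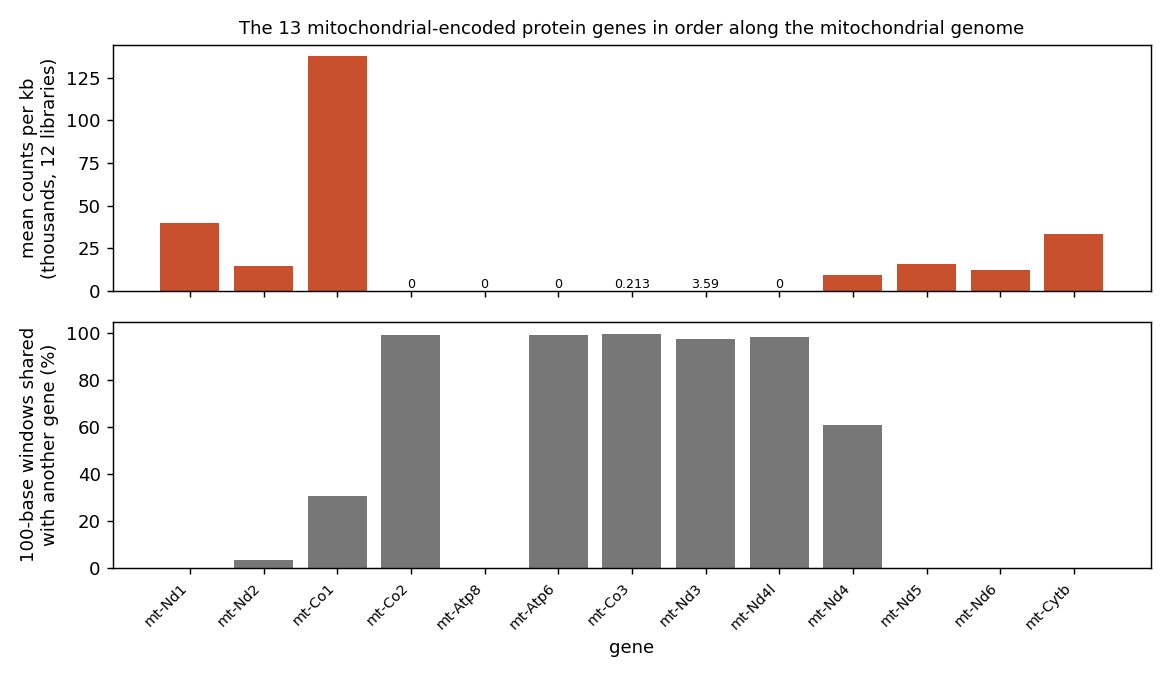
Counts per kb, averaged over the 12 libraries (upper bars, in units of 1000), and the share of 100-base windows found in an annotated transcript of another gene (lower bars, in percent) for the 13 mitochondrial-encoded protein genes in their order along the mitochondrial genome. The run from mt-Co2 to mt-Nd4l has no bar in the upper panel, and apart from mt-Atp8 its genes have the tallest bars in the lower one.

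The mitochondrial-encoded members described here are therefore mt-Nd1, mt-Nd2, mt-Nd4, mt-Nd5 and mt-Nd6 of complex I, mt-Cytb of complex III and mt-Co1 of complex IV, and complex V was represented by nuclear subunits alone. Mt-Nd6 is the one gene among them read from the opposite strand, and it overlaps mt-Nd5 by 14 bases. As strand handling is not given, its counts may hold RNA of either strand. Whether they come from mt-Nd6 itself was not tested, which limits each mt-Nd6 value below. The nuclear members were 36 subunits of complex I with 8 complex I assembly factors, 4 subunits of complex II, 9 of complex III, 16 of complex IV and 17 genes named for complex V. Under the filter were also Cox7b2, Cox8b, Cox8c, Ndufa4l2 and a second gene ID named Atp5o, which left Cox8a as the only Cox8 gene and Cox7b as the only Cox7b gene counted. Per length, mt-Co1 stood first in NS at 8043 TPM (reads per length, scaled to a common total), before mt-Nd1 (2295) and mt-Cytb (2168), and the highest nuclear members were Cox6a1 (1121 TPM), Cox8a (921 TPM) and Atp5a1 (758 TPM).

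The summed level of the 90 nuclear members and that of the 7 mitochondrial-encoded members did not move together across the groups. Summed normalized counts (counts divided by a size factor for each library) of the nuclear members were 403090 and 439490 in NS, 445920 and 477590 in NB9464 TCM, and 499550 and 486050 in NBT3L TCM. They were 395000 and 352510 in R788, 540100 and 518170 in NB9464 TCM + R788, and 517160 and 522160 in NBT3L TCM + R788. The nuclear sum was thus lowest with R788 alone and highest with both TCM and R788. As a share of all counts the nuclear members were at 0.851 and 0.925% in NS, 0.868 and 0.912% in NB9464 TCM, and 0.897 and 0.872% in NBT3L TCM. These 3 groups overlapped, as did R788 (0.869 and 0.782%) with NS, while the share was 0.941 to 1.02% with TCM and R788.

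For the mitochondrial-encoded members the sums were 331760 and 317870 in NS, 439190 and 417530 in NB9464 TCM, and 383610 and 396530 in NBT3L TCM. With R788 they were 307470 and 267720 without TCM, 337380 and 322140 in NB9464 TCM, and 333650 and 334110 in NBT3L TCM. In normalized counts the libraries with TCM alone were the 4 highest, and those with TCM and R788 lay near NS. As a share of all counts NBT3L TCM (0.689 and 0.711%) overlapped NS (0.701 and 0.669%), while NB9464 TCM was at 0.855 and 0.797%. With TCM and R788 this share was 0.606 to 0.639%, below NS. The ratio of the mitochondrial-encoded to the nuclear sum was 0.622 to 0.645 in the 4 libraries with TCM and R788 and 0.723 to 0.985 in the other 8, with no overlap. Mt-Co1 made up most of the mitochondrial-encoded sum. Its mean was 210500 normalized counts, against 38160 for mt-Nd1, the next, and 6248 for mt-Nd6. The sum and the ratio thus follow mt-Co1 above all, which shared 30.8% of its windows with nuclear copies.

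**Figure D2:**
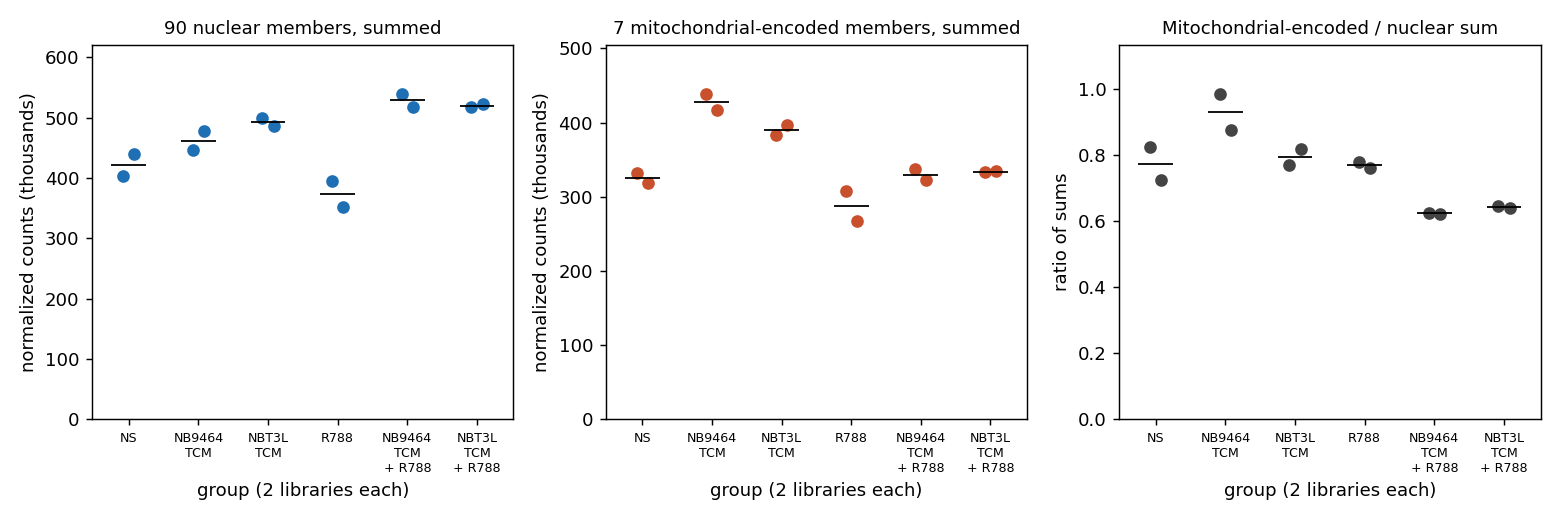
Summed normalized counts, in units of 1000, of the 90 nuclear members (left) and the 7 mitochondrial-encoded members (middle), and the ratio of the sums (right), by group. Points are single libraries, 2 per group, and bars are their means. The ratio falls to 0.622 to 0.645 in the groups with both TCM and R788. Mt-Co1 gives most of the mitochondrial-encoded sum.

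The first comparison asked how TCM of a MYCN amp line changed these genes against NS. In NB9464 TCM, 5 of the 7 mitochondrial-encoded members were higher and 0 lower, with a median log2 fold change of 0.42. Of the 90 nuclear members 14 were higher and 1 lower, with a median of 0.11 against 0.02 over all genes tested. Calls are those of DESeq2 with a Benjamini-Hochberg adjusted p under 0.05 over all genes, and 17.2% of all genes tested passed as higher and 16.9% as lower. The share of nuclear members called higher was thus near that of all genes, while few were called lower.

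Mt-Nd5, a subunit of the proton-pumping arm of complex I, had 25320 and 23165 normalized counts in NS and 36518 and 33856 in NB9464 TCM. Its log2 fold change was 0.54 ± 0.06 (SE; DESeq2 adjusted p = 4.67e-16). Mt-Nd6, also of that arm, had 5522 and 5160 in NS and 7408 and 8204 in NB9464 TCM, a change of 0.55 ± 0.08 (DESeq2 adjusted p = 1.72e-11). In both genes every TCM library lay above every NS library. Mt-Co1, the catalytic core of cytochrome c oxidase, rose by 0.43 ± 0.06 (DESeq2 adjusted p = 1.77e-13), mt-Nd1 by 0.42 ± 0.08 and mt-Nd2 by 0.27 ± 0.09, while mt-Nd4 (0.37 ± 0.16, adjusted p = 0.06) and mt-Cytb (0.16 ± 0.08, adjusted p = 0.105) were not called.

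Among nuclear members called, the largest change was that of Cox6a2, the isoform of complex IV subunit 6A known from heart and skeletal muscle. It had 35 and 42 normalized counts in NS against 300 and 347 in NB9464 TCM, a log2 fold change of 3.08 ± 0.35 (DESeq2 adjusted p = 2.63e-17). Its ubiquitous counterpart Cox6a1 was far higher in level, with 11468 and 13273 in NS and 14776 and 17376 in NB9464 TCM, and rose by 0.38 ± 0.09 (DESeq2 adjusted p = 8.6e-05). Ndufaf4, a complex I assembly factor, rose by 0.61 ± 0.13, and Atp5l, the g subunit of ATP synthase, by 0.78 ± 0.32, from 138 in both NS libraries to 253 and 220. The Atp5l call (DESeq2 adjusted p = 0.0451) was made in 8 of the 19 alternative settings. Atp5l was among the lowest members in NS, at 1.37 TPM and rank 95 of 97, over an annotated length of 6443 bases. It shared 4.70% of its windows with 6 other genes, and their part in its low count was not tested. Ndufs8, an iron-sulfur subunit of complex I, was the nuclear member called lower, from 2991 and 3160 to 2136 and 2129 (-0.53 ± 0.10, DESeq2 adjusted p = 1.2e-06).

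The count of nuclear members called higher in NB9464 TCM rested on single libraries: it was 6 without SJ1 or without SJ4, and 25 without either SJ7 or SJ8 of the R788 group, which is not part of the comparison. The nuclear median was 0.02 without SJ1 and 0.20 without SJ2. Neutrophil markers summed to 177 to 183 CPM against 149 to 159 in NS and macrophage markers to 39400 to 41100 against 34000 to 34900, and their part was not tested. Nuclear members called lower were 2 without SJ1 or without SJ4. With each library scaled to its total over nuclear genes, the median of all genes shifted to -0.10, the share of calls that were higher fell from 50.5% to 35.7%, and 6 nuclear members were called higher and 6 lower, with a median of -0.02, while 4 mitochondrial-encoded members stayed higher with a median of 0.29.

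TCM of the non-MYCN amp line was compared with the same NS libraries, so its values share their error with those above. In NBT3L TCM, 35 of 90 nuclear members were higher and 2 lower, with a median log2 fold change of 0.23 against 0.00 over all genes, of which 18.0% were called higher and 17.3% lower. Of the mitochondrial-encoded members 5 of 7 were higher, with a median of 0.34. By complex, 15 of 36 nuclear subunits of complex I, 2 of 4 of complex II, 2 of 9 of complex III, 5 of 16 of complex IV and 8 of 17 of complex V were higher, and so were 3 of the 8 assembly factors.

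Cox5a, a structural subunit of complex IV, had 2925 and 3214 normalized counts in NS and 4774 and 4734 in NBT3L TCM, a log2 fold change of 0.63 ± 0.10 (DESeq2 adjusted p = 1.61e-09). Ndufaf5, an assembly factor that modifies Ndufs7, rose by 0.75 ± 0.20 from 337 and 345 to 561 and 586 (DESeq2 adjusted p = 0.000991). Ndufb6, an accessory subunit of complex I, rose by 0.59 ± 0.18 from 1325 and 1484 to 2108 and 2135, a call lost without SJ1 and under scaling to nuclear totals. In each of these genes both TCM libraries lay above both NS libraries.

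Sdhb, the iron-sulfur subunit of succinate dehydrogenase, rose by 0.44 ± 0.06, with 6473 and 6590 in NS and 9186 and 8487 in NBT3L TCM, while Sdha (-0.10 ± 0.05) and Sdhc (-0.03 ± 0.07) of the same complex were not called. Cyc1, the cytochrome c1 of complex III, rose by 0.36 ± 0.08, and Atp5b, the catalytic beta subunit of ATP synthase, by 0.32 ± 0.05. The members called lower were Ndufs8 (-0.39 ± 0.10, DESeq2 adjusted p = 0.000589) and Cox7a2l, counted here with complex IV (-0.30 ± 0.09, DESeq2 adjusted p = 0.00468). Cox7a2l was not called without SJ6. Cox6a2 had 35 and 84 in NBT3L TCM, a change of 0.65 ± 0.38 that was not called (adjusted p = 0.179).

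Of the mitochondrial-encoded members, mt-Nd5 (0.47 ± 0.06), mt-Nd6 (0.44 ± 0.08), mt-Nd1 (0.34 ± 0.08), mt-Co1 (0.25 ± 0.06) and mt-Nd2 (0.23 ± 0.09) were higher in NBT3L TCM. The nuclear count of 35 became 18 without SJ1 and 23 without SJ5, and the count lower became 1 without SJ6. Neutrophil markers summed to 197 to 204 CPM and macrophage markers to 40400 to 43000, both above NS, and their part was not tested. With scaling to nuclear totals the median of all genes shifted to -0.23, the share of calls that were higher fell from 51.1% to 26.8%, and 6 nuclear members were called higher and 7 lower around a median near 0 (-0.0013), with 2 mitochondrial-encoded members higher (median 0.11). This scaling moves all genes alike, and in both TCM the nuclear median lay above that of all genes under either scaling.

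The TCM were then set against each other without R788. Between NB9464 TCM and NBT3L TCM, 2 of 90 nuclear members were higher in NB9464 TCM and 6 lower (median -0.13, all genes 0.00), against 3.69% and 5.72% of all genes. Cox6a2 was higher by 2.43 ± 0.34 (DESeq2 adjusted p = 9.91e-11) and Cox7a2l by 0.33 ± 0.09 (adjusted p = 0.00465). Ndufs4, an accessory subunit of complex I (-0.40 ± 0.14), Ndufb3, another (-0.32 ± 0.11), and Atp5j2, the f subunit of ATP synthase (-0.28 ± 0.08), were lower. These 3 calls were not made by the edgeR quasi-likelihood test, with adjusted p of 0.117, 0.092 and 0.0644.

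Mt-Co1 was the mitochondrial-encoded member called between the TCM (0.18 ± 0.06, higher in NB9464 TCM), and not without SJ3, SJ5 or SJ6. The 6 nuclear members called lower became 0 without SJ3, 1 without SJ5 or SJ6, 2 without SJ11 or SJ12, 3 without SJ9, 12 without SJ7 and 13 without SJ8, and the 2 called higher became 1 without SJ4 or SJ6. Scaling to nuclear totals shifted the median of all genes to 0.10 and the share of higher calls from 39.2% to 72.8%, with 4 nuclear members higher and 0 lower.

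R788 without TCM was compared with NS to ask what Syk inhibition does in otherwise untreated BMDMs. Of 90 nuclear members, 2 were higher and 27 lower, with a median log2 fold change of -0.14 against 0.00 over all genes, of which 11.6% were called higher and 15.0% lower. The members called lower were 9 of 17 of complex V, 6 of 16 of complex IV, 5 of 9 of complex III, 5 of 36 of complex I, 1 of 4 of complex II and 1 of 8 assembly factors. Of the mitochondrial-encoded members 0 were higher and 2 lower (median -0.18). The fibroblast marker sum moved with R788, at 56.7 and 66.0 CPM against 25.1 and 32.1 in NS, and its part in the results was not tested.

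Ndufa12, an accessory subunit of complex I, had 1913 and 2357 normalized counts in NS and 1541 and 1120 in R788, a log2 fold change of -0.68 ± 0.15 (DESeq2 adjusted p = 4.75e-05). Atp5k, the e subunit of ATP synthase, had 1074 and 1565 in NS and 988 and 696 in R788 (-0.65 ± 0.19, adjusted p = 0.00298), and was not called without SJ2 or without SJ8. Cox7a2, the ubiquitous isoform of complex IV subunit 7A, had 3937 and 4702 in NS and 3335 and 2190 in R788 (-0.65 ± 0.14, adjusted p = 1.88e-05). In all 3 genes both R788 libraries lay below both NS libraries, and SJ8 was the lower of the pair.

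Atp5b was lower by 0.36 on the log2 scale, from 42029 and 43454 to 34742 and 31981 (-0.36 ± 0.05, DESeq2 adjusted p = 6.55e-10). Sdhc (-0.35 ± 0.07), Cyc1 (-0.30 ± 0.09), Uqcrc1, a core subunit of complex III (-0.28 ± 0.07), and Uqcrfs1, its Rieske iron-sulfur protein (-0.20 ± 0.08), were lower too, the last not by edgeR (adjusted p = 0.0583). Ndufs1, the largest iron-sulfur subunit of complex I, was not called (-0.02 ± 0.08). Atpif1, the inhibitor protein of ATP synthase, which the name rule leaves out, had 3587 and 4223 in NS and 3108 and 1904 in R788 (-0.64 ± 0.15, adjusted p = 0.00023).

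The members called higher with R788 alone were Cox6a2 and Cox7a2l. Cox6a2 went from 35 and 42 normalized counts to 353 and 240 (2.95 ± 0.35, DESeq2 adjusted p = 1.42e-15). Cox7a2l went from 4523 and 4623 to 6469 and 7577 (0.62 ± 0.09, DESeq2 adjusted p = 1.61e-10). Cox7a2l shared 7.77% of its windows with Gm6969, a processed pseudogene with 1271 to 2790 counts per library. Its share was under the 10% at which members were left out for shared sequence, so Cox7a2l stayed in. The part of Gm6969 in the Cox7a2l values was not tested. Cox4i2, the isoform of complex IV subunit 4 known from lung and hypoxia, was called lower, but on few counts (18 and 39 in NS, 5 and 0 in R788) and not by edgeR (adjusted p = 0.106). Mt-Nd1 (-0.40 ± 0.08) and mt-Nd2 (-0.46 ± 0.09) were lower, and mt-Nd6 was at 5513 and 6187 against 5522 and 5160 in NS (0.13 ± 0.08, adjusted p = 0.212).

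The size of the change with R788 alone differed between its libraries. SJ8 was below SJ7 by a median of 0.18 on the log2 scale over nuclear members and 0.32 over mitochondrial-encoded members, and SJ2 was above SJ1 by 0.15 over nuclear members. The nuclear median was -0.25 without SJ7 and -0.07 without SJ8, and the mitochondrial-encoded median -0.35 and -0.06. Nuclear members called lower were 44 without SJ7, 16 without SJ8 and 11 without SJ2, and mitochondrial-encoded members called lower were 6 without SJ7, where 1 was called higher. Nuclear members called higher were 4 without SJ7 and 5 without SJ8 or SJ2. Across the 90 nuclear members the difference SJ8 minus SJ7 had a Spearman correlation of 0.35 with the length of the principal transcript, and SJ2 minus SJ1 one of -0.39, both described across genes of the same library pair. Over 13298 genes the same correlations were 0.23 and -0.28. With scaling to nuclear totals the share of calls that were higher rose from 43.5% to 55.3%, and 7 nuclear members were higher and 22 lower, with 1 mitochondrial-encoded member higher.

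In NB9464 TCM the nuclear and the mitochondrial-encoded members went opposite ways with R788. Of the 7 mitochondrial-encoded members 6 were lower and 0 higher, with a median log2 fold change of -0.39. Of the 90 nuclear members 20 were higher and 0 lower, with a median of 0.21, and 84 had estimates above 0. Over all genes the median was 0.00, with 5.79% higher by the same test and 8.7% lower.

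Mt-Nd6 fell from 7408 and 8204 normalized counts in NB9464 TCM to 5709 and 5485 with R788 (-0.48 ± 0.08, DESeq2 adjusted p = 2.23e-08). Mt-Co1 fell from 270684 and 253945 to 203694 and 195702 (-0.39 ± 0.06, adjusted p = 7.64e-11). Mt-Nd5 fell from 36518 and 33856 to 26450 and 27031 (-0.40 ± 0.06, adjusted p = 1.88e-08). In these 3 genes the groups did not overlap, and the levels with R788 were near those of NS. Mt-Cytb (-0.40 ± 0.08), mt-Nd2 (-0.29 ± 0.09) and mt-Nd1 (-0.28 ± 0.08) were lower as well, and mt-Nd4 had a like estimate with a wider error (-0.37 ± 0.16, adjusted p = 0.094).

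All 4 subunits of complex II, the complex with no mitochondrial-encoded subunit, were higher with R788 in NB9464 TCM. Sdhb went from 7439 and 7852 to 9813 and 9532 (0.34 ± 0.06, DESeq2 adjusted p = 1.36e-06), Sdhd by 0.23 ± 0.08, Sdhc by 0.21 ± 0.07 and Sdha by 0.18 ± 0.05. The edgeR test called 2 of the 4. Of the other complexes, 6 of 36 nuclear subunits of complex I, 1 of 9 of complex III, 5 of 16 of complex IV and 4 of 17 of complex V were higher, and 0 of the 8 assembly factors.

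Cox6a2 had the largest estimate of those called, from 300 and 347 to 830 and 706 (1.25 ± 0.32, DESeq2 adjusted p = 0.000943), and was not called without SJ9. Ndufa13, an accessory subunit of complex I also known as GRIM-19, rose by 0.42 ± 0.12, a call lost without SJ3 or SJ9, and Ndufv3, a subunit of its NADH-binding part, rose by 0.40 ± 0.09 from 3451 and 3605 to 4845 and 4444 (adjusted p = 6.34e-05). Ndufs8, lower with the TCM, rose by 0.38 ± 0.10 (adjusted p = 0.00169).

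The count of nuclear members called with R788 in NB9464 TCM varied with the libraries fitted and with the test. It was 36 when only the libraries of the compared groups were fitted, 42 without SJ7, 41 without SJ8, 13 by the edgeR test, 10 without SJ10 and 4 without SJ3 or without SJ9, with medians of 0.15 to 0.27 when a library was left out. The mitochondrial-encoded count was 4 to 7 when a library was left out and 7 by edgeR. Macrophage markers summed to 46800 to 48300 CPM with R788 against 39400 to 41100 without it, fibroblast markers to 37.4 to 43.2 against 28.0 to 30.5, and neutrophil markers to 152 to 166 against 177 to 183. Their part was not tested.

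In NBT3L TCM the mitochondrial-encoded members were again lower with R788: 4 of 7 were called lower and 0 higher, with a median log2 fold change of -0.24. Of the nuclear members 5 of 90 were higher and 0 lower, with a median of 0.07 against 0.00 over all genes, and 5.33% of all genes were called higher and 7.24% lower, so that the nuclear share was near the background. Mt-Nd6 went from 7149 and 7339 to 5673 and 5622 (-0.36 ± 0.08, DESeq2 adjusted p = 7.75e-05). Mt-Co1 went from 227408 and 235160 to 196754 and 195950 (-0.24 ± 0.06, adjusted p = 0.000363). Mt-Cytb (-0.26 ± 0.08) and mt-Nd5 (-0.25 ± 0.06) were lower, and mt-Nd1 (-0.11 ± 0.08) was not called.

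The 5 nuclear members called higher were Cox6a2 (35 and 84 to 148 and 148; 1.30 ± 0.35, DESeq2 adjusted p = 0.00238), Ndufb10 (0.35 ± 0.13), Ndufs7, which carries an iron-sulfur cluster near the quinone site of complex I (0.32 ± 0.11), Cox5a (0.29 ± 0.10) and Ndufv3 (0.27 ± 0.09). Cox6a2 was not called without SJ5, where its NBT3L TCM level rests on SJ6 alone, and Ndufb10, Ndufs7 and Cox5a were not called by edgeR (adjusted p of 0.0885, 0.0616 and 0.0597). All 5 were also among the 20 called in NB9464 TCM, and all 4 mitochondrial-encoded members were among the 6 called there. These comparisons share no library, but both came from the same model of all groups, with 1 estimate of spread per gene. How many of all genes were called in both was not counted, so this overlap has no background to be read against. The nuclear count was 1 without SJ6, SJ11 or SJ12, 2 without SJ5, 8 without SJ7, 9 without SJ8 and 19 when only the compared libraries were fitted, and the mitochondrial-encoded count was 2 without SJ6 and 7 without SJ7 or SJ8. Macrophage markers summed to 48100 to 49000 CPM with R788 against 40400 to 43000, fibroblast markers to 60.4 to 61.9 against 32.3 to 37.8, and neutrophil markers to 161 to 165 against 197 to 204. Their part was not tested.

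**Figure D3:**
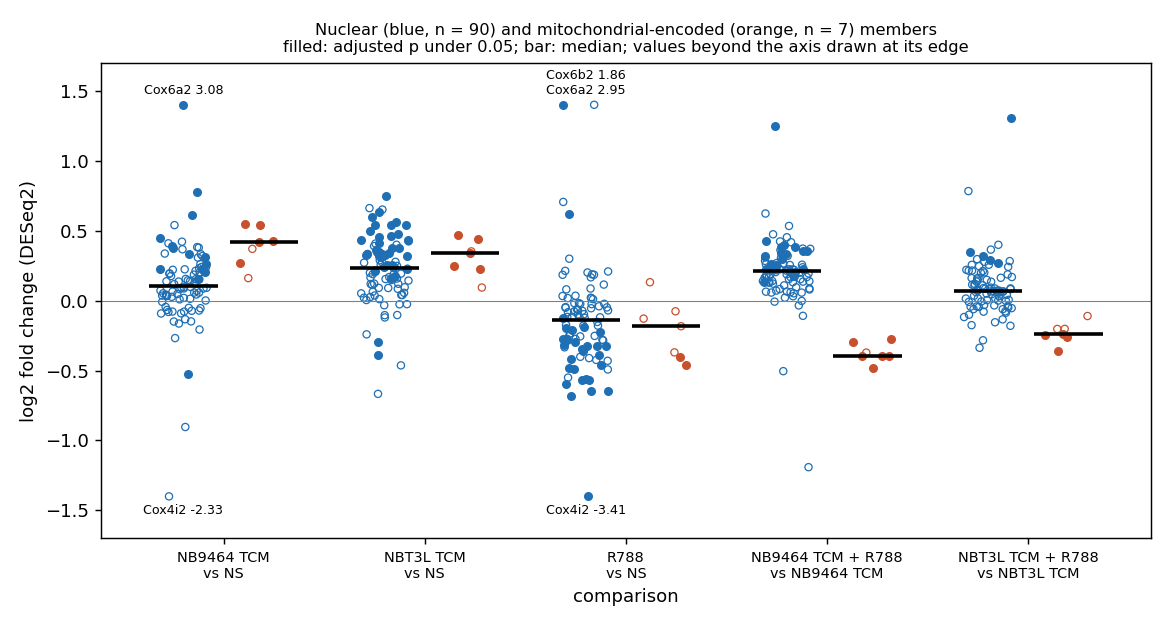
Log2 fold changes (DESeq2) of the 90 nuclear (blue) and 7 mitochondrial-encoded (orange) members in 5 comparisons. Filled points had an adjusted p under 0.05, black bars are medians, and points beyond the axis are drawn at its edge with their value; in the R788 comparisons with TCM the medians lie on opposite sides of 0 (0.21 and -0.39 in NB9464 TCM, 0.07 and -0.24 in NBT3L TCM).

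Averaged over the 3 media, R788 was followed by lower levels of all 7 mitochondrial-encoded members counted (median log2 fold change -0.26). The estimates ran from -0.32 (mt-Nd2) to -0.24 (mt-Nd6), and the 7 calls were made in each fit that left out 1 library. Of the 90 nuclear members 13 were higher and 2 lower, with a median of 0.03 against -0.01 over all genes, of which 13.4% were called higher and 16.2% lower. The nuclear members called lower were Ndufa9 (-0.15 ± 0.04) and Atp5b (-0.10 ± 0.03), and they became 16 without SJ7 and 4 without SJ1 or SJ9, and those higher became 22 without SJ8. The largest rises were those of Cox6a2 (1.83 ± 0.20, DESeq2 adjusted p = 2.33e-19), Ndufb2 (0.51 ± 0.21, adjusted p = 0.0431) and Cox7a2l (0.37 ± 0.05, adjusted p = 3.43e-11). Ndufb2, with 92 to 205 normalized counts per library, was called in 7 of 18 alternatives and overlaps Braf on the opposite strand by 146 bases.

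**Figure D4:**
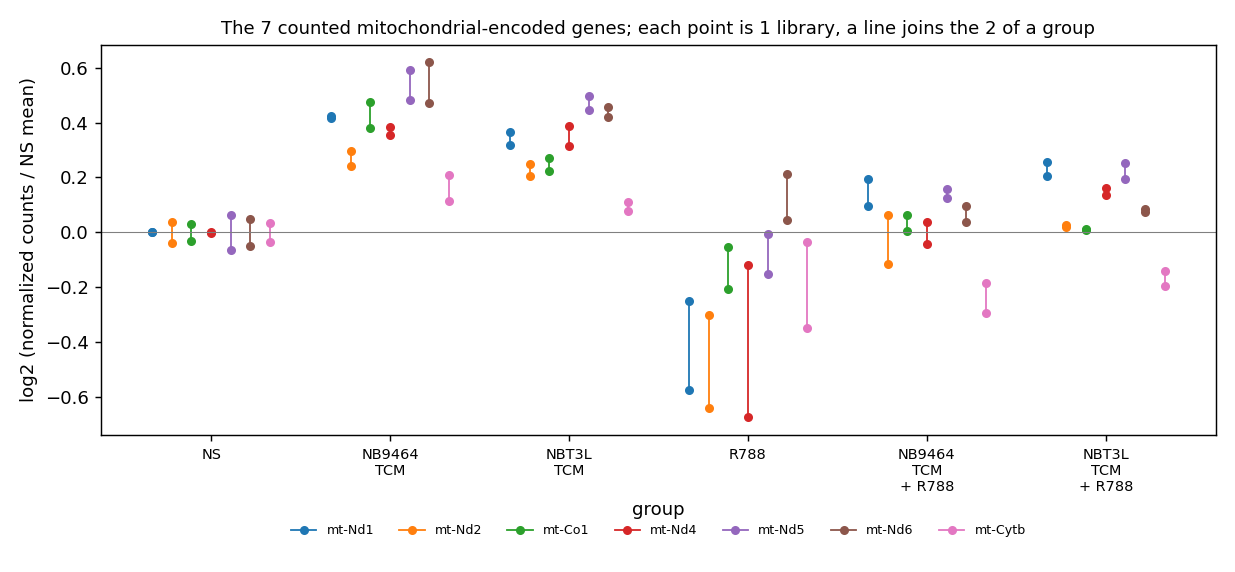
Normalized counts of the 7 counted mitochondrial-encoded genes relative to their NS mean (log2), by group. Points are libraries and a line joins the 2 of a group; all points lie above 0 in both TCM groups, mt-Cytb lies below 0 in the groups with TCM and R788, and the R788 pair has the widest median gap (0.32).

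Whether R788 acted differently with TCM than without it was tested as an interaction. For NB9464 TCM, 35 of 90 nuclear members had a more positive R788 effect with TCM than without and 1 a more negative one, against 6.22% and 6.26% of all genes, and the median difference was 0.31 (all genes 0.00). By complex these were 11 of 17 of complex V, 8 of 16 of complex IV, 6 of 9 of complex III, 2 of 4 of complex II and 8 of 36 of complex I. Of the mitochondrial-encoded members 3 of 7 differed, all in the negative direction. The interaction takes the difference R788 minus NS away from the difference within TCM, so the libraries SJ7, SJ8, SJ1 and SJ2 enter it.

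The largest positive interactions with NB9464 TCM were those of Atp5k (1.10 ± 0.27, DESeq2 adjusted p = 0.000567), Ndufa12 (0.97 ± 0.21, adjusted p = 0.000108) and Cox7a2 (0.91 ± 0.19, adjusted p = 5.41e-05). Atp5k had 1118 and 1074 in NB9464 TCM and 1679 and 1321 with R788 added, a difference that was not called by itself (0.45 ± 0.19, DESeq2 adjusted p = 0.0747). Cox6a2 had a negative interaction (-1.71 ± 0.47, adjusted p = 0.00372): R788 raised it in both media, by 2.95 without TCM and by 1.25 in NB9464 TCM. Mt-Nd6 (-0.61 ± 0.11, DESeq2 adjusted p = 9.81e-07), mt-Nd5 (-0.32 ± 0.09) and mt-Co1 (-0.26 ± 0.08) had negative interactions too, all with lower estimates for R788 in NB9464 TCM than without TCM, where none of the 3 was called.

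For NBT3L TCM, 16 nuclear members had a positive interaction and 2 a negative one, against 5.17% and 4.96% of all genes, with a median of 0.24 (all genes 0.02). Atp5k (0.93 ± 0.26), Cox7a2 (0.68 ± 0.19) and Ndufa12 (0.64 ± 0.21) led the positive ones, and Cox6a2 (-1.65 ± 0.50) and Cox7a2l (-0.45 ± 0.13) were the negative ones. Of the 19 alternatives, 17 called Atp5k, 14 Cox7a2, 13 Ndufa12, 15 Cox6a2 and 19 Cox7a2l, and edgeR did not call Ndufa12 (adjusted p = 0.0697). Without SJ8 the estimate was 0.41 for Cox7a2 and 0.42 for Ndufa12, the latter not called. Mt-Nd6 was the mitochondrial-encoded member called (-0.49 ± 0.11, DESeq2 adjusted p = 0.0002). Between the TCM, the R788 effect differed for 0 of 90 nuclear and 0 of 7 mitochondrial-encoded members by DESeq2 and by edgeR, with 0.283% and 0.424% of all genes called, so the smaller effects in NBT3L TCM were not shown to differ from those in NB9464 TCM.

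The nuclear interaction counts moved with single libraries. The 35 for NB9464 TCM became 17 without SJ2, 18 without SJ3, 19 without SJ9 and 51 without SJ7, and the 1 negative became 2 without SJ7 or SJ9. The 3 negative mitochondrial-encoded calls became 1 without SJ2 or SJ3 and 5 without SJ8, and 3 positive ones appeared without SJ7. For NBT3L TCM the 16 became 3 without SJ2, 4 without SJ6, 5 without SJ12, 6 without SJ11, 10 without SJ5 and 42 without SJ7, the 2 negative became 1 without SJ1, SJ6 or SJ7, and the mitochondrial-encoded members called negative were 4 without SJ8, with 3 positive without SJ7. Scaling to nuclear totals changed the share of higher calls from 49.9% to 31.0%, from 51.1% to 40.0% and, between the TCM, from 40.0% to 24.0%, and left 25 nuclear members positive for NB9464 TCM and 7 for NBT3L TCM.

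**Figure D5:**
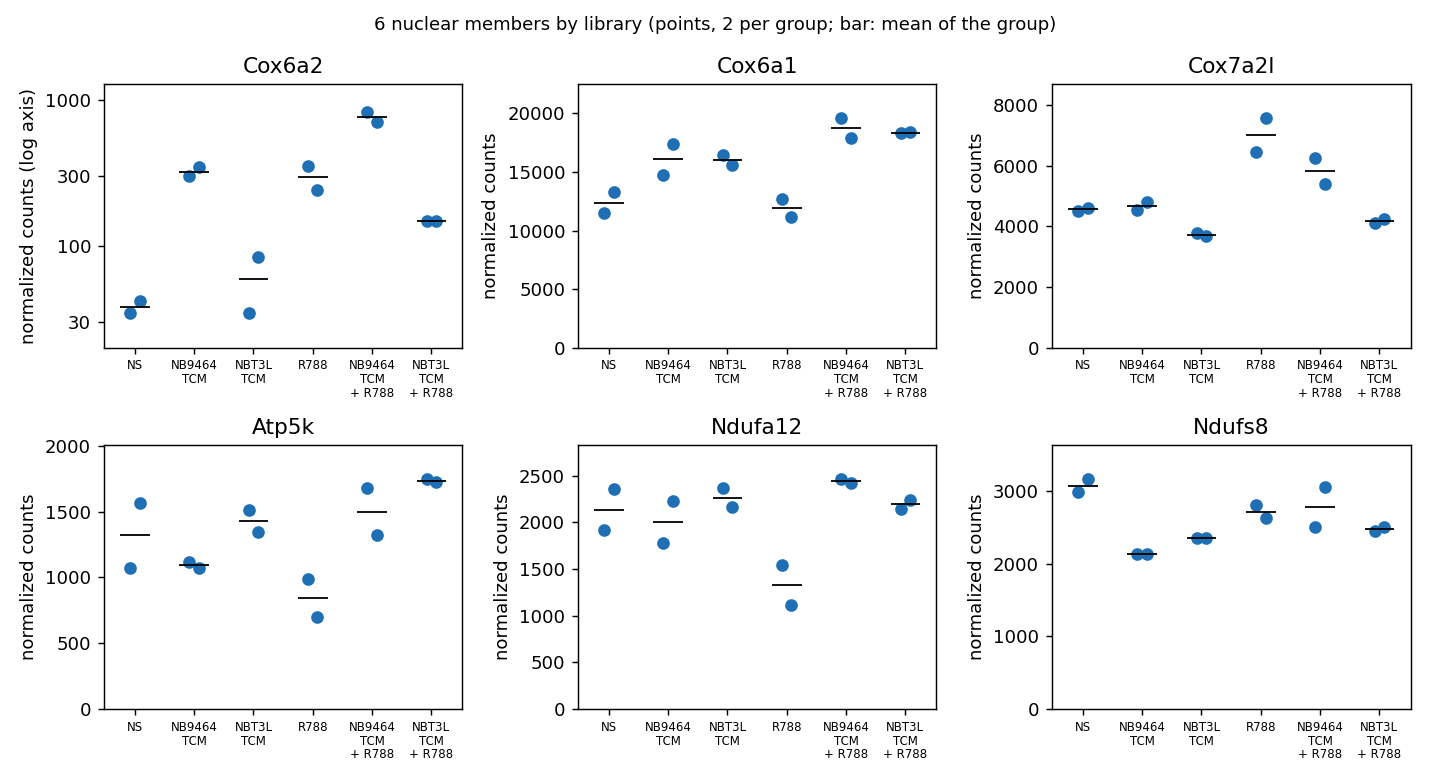
Normalized counts of 6 nuclear members by library (points, 2 per group, with the mean as a bar; Cox6a2 on a log axis). Cox6a2 is lowest in NS (35 and 42) and highest in NB9464 TCM + R788 (830 and 706), and Atp5k and Ndufa12 are lowest in R788.

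Subunit isoforms differed in their patterns. Cox6a2 had 35 and 42 normalized counts in NS, 35 and 84 in NBT3L TCM, 148 in both libraries of NBT3L TCM + R788, 353 and 240 in R788, 300 and 347 in NB9464 TCM, and 830 and 706 in NB9464 TCM + R788. Within this order NS and NBT3L TCM overlapped, and so did R788 and NB9464 TCM. Cox6a2 (chr7:128205435-128206387, minus strand) shared none of its 100-base windows with another annotated gene, and the gene that overlaps it on the opposite strand, Itgad, had 0 to 6 counts.

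Cox4i1, the ubiquitous isoform of subunit 4, had 15460 to 22306 normalized counts against 0 to 39 for Cox4i2. Cox6b1 had 4604 to 10190 against 2 to 45 for Cox6b2, which is known from testis. Cox7a2 had 2190 to 5544 against 37 to 115 for the muscle isoform Cox7a1. Apart from Cox6a2, and from Cox4i2 with R788 alone, the minor isoforms were called in none of these comparisons by DESeq2. Ndufa4, which is now counted as a subunit of complex IV, had 2811 to 5993, with its lowest value in SJ8, and was called in none of the comparisons.

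Promoter sequences from RefSeq (GRCm38.p6), 250 bases before to 50 after the annotated start, matched 74 of the 90 nuclear members. They were searched on both strands for the letters GCGCATGC, a core of the site of NRF1, a factor known to act on many respiratory chain genes, for CCGGAAGT, a core of ETS sites such as those of GABP, and for AAGATGGC, a core of YY1 sites. The NRF1 letters were found in 15.2% of 79 member windows and 2.71% of all 32851 windows, the YY1 letters in 13.9% and 2.75%, and the ETS letters in 6.33% and 3.89%. A match is a description of the letters and does not show binding.

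The stretches from 200 to 30 bases before the start are shown for Atp5k and Cox7a2, which were both lower with R788 alone, for Cox6a1, the counterpart of Cox6a2, and for Ndufaf4, which rose in the TCM. Capitals mark the NRF1 letters, which in the first 3 lie on both strands and overlap into 1 run of 10 bases. The positions are chr5:108434429-108434599 (minus strand) for Atp5k, chr4:24897883-24898053 (plus) for Ndufaf4, chr5:115348988-115349158 (minus) for Cox6a1 and chr9:79759883-79760053 (minus) for Cox7a2.
Atp5k: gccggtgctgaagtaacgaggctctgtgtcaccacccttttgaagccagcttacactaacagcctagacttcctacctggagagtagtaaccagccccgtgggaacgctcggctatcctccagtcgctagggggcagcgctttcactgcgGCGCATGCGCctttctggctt
Ndufaf4: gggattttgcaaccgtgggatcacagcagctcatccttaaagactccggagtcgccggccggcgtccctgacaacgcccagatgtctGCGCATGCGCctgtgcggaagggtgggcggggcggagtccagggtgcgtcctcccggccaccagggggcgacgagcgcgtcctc
Cox6a1: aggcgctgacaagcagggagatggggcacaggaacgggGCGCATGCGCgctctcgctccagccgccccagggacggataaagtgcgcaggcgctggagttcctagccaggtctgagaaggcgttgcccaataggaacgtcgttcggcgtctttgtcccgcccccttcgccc
Cox7a2: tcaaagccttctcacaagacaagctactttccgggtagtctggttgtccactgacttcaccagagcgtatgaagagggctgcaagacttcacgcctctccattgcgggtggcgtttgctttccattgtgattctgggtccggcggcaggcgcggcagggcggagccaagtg
The run began 50 bases before the start in Atp5k, 113 in Ndufaf4 and 162 in Cox6a1, and Cox7a2 held none of the 3 motifs in the stretch shown.

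Genes that serve these complexes were counted in lists of their own, to be read against the shares of all genes called higher and lower: 17.2% and 16.9% in NB9464 TCM, 18.0% and 17.3% in NBT3L TCM, 11.6% and 15.0% with R788 alone, 5.79% and 8.7% with R788 in NB9464 TCM, and 5.33% and 7.24% with R788 in NBT3L TCM. Of 15 tested genes that process or stabilise mitochondrial RNA, 7 were higher and 0 lower in NB9464 TCM (median log2 fold change 0.20), and 5 and 0 in NBT3L TCM (0.15). With R788, 0 were higher in any medium, and 2 were lower in the absence of TCM, 3 with NB9464 TCM and 2 with NBT3L TCM (medians -0.14, -0.07 and -0.07). Lrpprc, which stabilises mitochondrial messenger RNAs, rose by 0.37 in NB9464 TCM and 0.34 in NBT3L TCM, and Fastkd1, of a family acting on single mitochondrial transcripts, by 1.20 and 0.68. Pnpt1, a mitochondrial RNA exonuclease subunit, was lower with R788 in each medium (-0.68, -0.39 and -0.43), and so was Fastkd3 (-0.63, -0.69 and -0.31).

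Of 15 genes for transcription and replication of mitochondrial DNA, few passed the test: with NB9464 TCM 0 rose and 1 fell, with NBT3L TCM 1 and 1, and 1 and 0 with R788 alone, with 0 called with R788 in either TCM by DESeq2. Polrmt, the mitochondrial RNA polymerase, and Tfam, which packages mitochondrial DNA, were called in none of these, and Polg, the mitochondrial DNA polymerase, was lower in NB9464 TCM (-0.34) and NBT3L TCM (-0.21) and higher with R788 alone (0.39). Of 7 tested nuclear regulators, 3 were higher and 3 lower in NB9464 TCM, 2 and 3 in NBT3L TCM, 1 and 1 with R788 alone, 0 and 2 with R788 in NB9464 TCM and 0 and 0 in NBT3L TCM. Esrra rose by 0.81 and 0.67 in NB9464 TCM and NBT3L TCM, and Pprc1 by 0.53 and 0.33. Nrf1 (-0.42 and -0.41) and Gabpa (-0.44 and -0.52) were lower in the same comparisons.

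Of 14 genes of the TCA cycle, which supplies NADH and succinate to the chain, 8 were higher and 3 lower in each TCM, while 0 were higher and 7 lower with R788 alone (median -0.23), 3 and 1 with R788 in NB9464 TCM and 0 and 1 in NBT3L TCM. Mdh2, the malate dehydrogenase of mitochondria, had log2 fold changes of 0.62 in NB9464 TCM, 0.76 in NBT3L TCM and -0.51 with R788 alone. Of 77 tested proteins of the mitochondrial ribosome, which translates the mitochondrial-encoded members, 11 were higher and 3 lower in each TCM, smaller shares than those of all genes, and 2 were higher and 24 lower with R788 alone (median -0.23), against 1 and 0 with R788 in NB9464 TCM and 0 and 0 in NBT3L TCM. Of 36 tested assembly factors outside the name rule, 4 were higher and 2 lower in NB9464 TCM, 6 and 2 in NBT3L TCM, again under the shares of all genes, 1 and 4 with R788 alone, 1 and 0 with R788 in NB9464 TCM and 0 and 0 in NBT3L TCM. Ttc19, a factor of complex III, was the highest of those called in both TCM (0.59 and 0.73).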

How the data were processed

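RNA of BMDMs was sequenced after poly(A) selection, in 12 libraries of 6 groups. Per the labels the reads were paired-end on a NovaSeq, while the methods describe single reads on a HiSeq2000 in triplicate, and the labels were followed. The submitters' processing notes name STAR 2.6.1d, Salmon 1.4.0, SAMtools 1.9, Picard 2.26, MultiQC 1.11 and the build mm10, with no roles. The authors deposited whole-number counts per Ensembl gene. Libraries held 44977847 to 56449685 counts, and 65.0 to 67.4% of counts from 1 to 50 were even, so halved counts were also tested. Strand handling is not given in the sources used here.

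The 16281 genes that reached 10 counts in 2 or more libraries were fitted with DESeq2 1.42.0 (R 4.3.3) in 1 model of the 6 groups (median-of-ratios scaling, Wald test, unshrunken log2 fold changes, Benjamini-Hochberg adjusted p under 0.05 within each comparison). edgeR 4.0.16 (quasi-likelihood, TMM), TMM and nuclear-total scaling, no filter, a mean of at least 50 counts, the compared libraries alone and leaving out each library were alternatives. Code was tested on simulated data. Symbols and positions came from GENCODE M21 (GRCm38).

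Named members were the mitochondrial-encoded genes, the 3 largest called rises and falls per comparison among nuclear members with a mean of at least 100 normalized counts, complex II, Cyc1, isoform groups, and core subunits. Genes of the other lists were named after their values were seen. Members and lists were chosen with earlier results of these data known.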

Additional observations from a re-analysis of the deposited data

Results flagged for a closer look

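The R788 effect differed between TCM and medium without TCM by the interaction test of DESeq2 for 36 of 90 nuclear and 3 of 7 mitochondrial-encoded members with NB9464 TCM, and for 18 and 1 with NBT3L TCM. Of all genes tested, 6.22% were called in the positive and 6.26% in the negative direction with NB9464 TCM, and 5.17% and 4.96% with NBT3L TCM.

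With NB9464 TCM the log2 difference between the R788 effects was 1.10 for Atp5k, 0.97 for Ndufa12, 0.91 for Cox7a2 and -1.71 for Cox6a2. With NBT3L TCM it was 0.93 for Atp5k, 0.68 for Cox7a2, 0.64 for Ndufa12, -1.65 for Cox6a2 and -0.45 for Cox7a2l.

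For the mitochondrial-encoded members it was -0.61 for mt-Nd6, -0.32 for mt-Nd5 and -0.26 for mt-Co1 with NB9464 TCM, and -0.49 for mt-Nd6 with NBT3L TCM. Libraries SJ7 and SJ8 of the R788 group enter each of these differences, and SJ8 detected 16149 genes against 17275 to 18343 in the others. Without SJ8, 31 nuclear members had a positive and 1 a negative interaction with NB9464 TCM, and 11 and 2 with NBT3L TCM, and 5 and 4 mitochondrial-encoded members had a negative one. Without SJ7 the nuclear numbers were 51 and 2 with NB9464 TCM and 42 and 1 with NBT3L TCM, and of the mitochondrial-encoded members 3 had a positive interaction with each, against 3 and 1 with a negative one. With NBT3L TCM the estimate without SJ8 was 0.41 for Cox7a2 and 0.42 for Ndufa12, the latter not called. Cox6a2 was not called there without SJ7.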

How the results depend on the processing

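No paired analysis was possible because the sources do not state which libraries, if any, came from the same mouse or culture. Of the counts and medians of the member groups recomputed under the alternatives, 1084 stayed within their limits and 110 moved, and of the values of single genes 1895 kept their call, 48 gained one, and 115 lost one. Of the called values 1 changed sign: mt-Nd2 in NBT3L TCM against NS, at -0.0052 with scaling to nuclear totals. Some estimates that were not called changed sign too, among them mt-Nd1 in the interaction with NB9464 TCM (down to -0.0235) and mt-Nd4 (down to -0.084) and mt-Cytb (up to 0.087) in that with NBT3L TCM. The causes were not tested.

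Scaling to nuclear totals gave, in NB9464 TCM against NS, 6 nuclear members higher and 6 lower with medians of -0.0196 (nuclear) and 0.2941 (mitochondrial-encoded), and in NBT3L TCM 6 higher and 7 lower with a median of -0.0013, and 2 mitochondrial-encoded members higher with a median of 0.1106. It gave 7 nuclear and 1 mitochondrial-encoded members higher with R788 alone. Between the TCM it gave 4 nuclear members higher and 0 lower (median -0.0252) and 2 mitochondrial-encoded members higher (median 0.1732). It gave 2 negative nuclear interactions with NB9464 TCM and 7 positive ones with NBT3L TCM. The edgeR test called 4 mitochondrial-encoded members lower with R788 alone, 13 nuclear members higher with R788 in NB9464 TCM and 2 in NBT3L TCM, 0 lower between the TCM, and 6 positive interactions with NBT3L TCM. TMM scaling called 3 lower between the TCM. With the compared libraries alone, nuclear counts were 16 lower with R788 alone, 36 higher with R788 in NB9464 TCM, 19 in NBT3L TCM (7 mitochondrial-encoded lower), 11 lower between the TCM, 10 positive and 1 negative interactions with NBT3L TCM, and 1 positive interaction between the TCM. Leaving out members that share at least 10% of their windows with another gene, an alternative chosen after seeing the data, left 0 mitochondrial-encoded members higher between the TCM.

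Leaving out 1 library at a time moved these counts of members called and median log2 fold changes. For NB9464 TCM against NS the ranges were nuclear median 0.0224 to 0.1981, nuclear higher 6 to 25, nuclear lower 1 to 2, mitochondrial median 0.3858 to 0.4227. For NBT3L TCM against NS the ranges were nuclear higher 18 to 46, nuclear lower 1 to 3. For R788 against NS the ranges were nuclear median -0.2478 to -0.0737, mitochondrial median -0.3487 to -0.056, nuclear higher 2 to 5, nuclear lower 11 to 44, mitochondrial higher 0 to 1, mitochondrial lower 2 to 6. For R788 in NB9464 TCM the ranges were nuclear higher 4 to 42, mitochondrial median -0.4128 to -0.3451. For R788 in NBT3L TCM the ranges were nuclear higher 1 to 9, nuclear median 0.0531 to 0.1078, mitochondrial lower 2 to 7. For NB9464 TCM against NBT3L TCM the ranges were nuclear lower 0 to 13, nuclear median -0.1816 to -0.0625, nuclear higher 1 to 2, mitochondrial higher 0 to 1. For R788 averaged over the media the ranges were nuclear lower 2 to 16, nuclear median -0.0214 to 0.0712, nuclear higher 9 to 22, mitochondrial median -0.319 to -0.2323. For the interaction with NB9464 TCM the ranges were nuclear higher 17 to 51, nuclear lower 1 to 2, mitochondrial lower 1 to 5, mitochondrial higher 0 to 3, mitochondrial median -0.3377 to -0.0491. For the interaction with NBT3L TCM the ranges were nuclear lower 1 to 2, nuclear higher 3 to 42, mitochondrial higher 0 to 3, mitochondrial median -0.1822 to 0.087, mitochondrial lower 1 to 4. With 2 libraries per group, the lone library left is assumed to vary like the other groups.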
